A study of Homo sapiens with 3 samples.

Results

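The miR-106b-25 and miR-106a-363 clusters, the paralogues of the miR-17-92 cluster, were followed in Argonaute2 (Ago2) immunoprecipitates of Hep G2 cells. Their members were taken by exact name. They were hsa-miR-106b, hsa-miR-93 and hsa-miR-25 for the first cluster and hsa-miR-106a, hsa-miR-18b, hsa-miR-20b and hsa-miR-363 for the second. Of these 7 names 6 matched probes on the arrays, among 851 human miRNA names and 939 names that were no controls, and hsa-miR-106a is not analysed here. Hep G2, a human hepatocellular cancer line, was transfected with 5 nM of a synthetic miR-195 or miR-497 mimic or was non-treated, and all cells were harvested at 24 h. The groups shared the cell line, the serum-supplemented medium and the Ago2 antibody, and no sample with a control mimic is analysed here, so the mimic and the transfection cannot be told apart. RNA recovered with Ago2 was labelled with Cy3, 10 ng per sample. The 3 arrays may have shared a slide, and each group was measured on 1 single-colour Agilent miRNA array. No test between groups was therefore possible, no p-value is given, and precision is limited by the number of arrays.

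The clusters arose by duplication of an ancestral miRNA gene cluster, and their products fall into families defined by the seed, the bases at positions 2 to 8 that select target mRNAs. The miR-17 family is best known for repressing the cell cycle inhibitor CDKN1A and the proapoptotic gene BCL2L11, and the miR-106b-25 cluster is transcribed within MCM7, a gene of DNA replication that E2F1 induces. Immunoprecipitation of Ago2, which carries the guide strand within the silencing complex, enriches miRNAs that are loaded for silencing. In the GRCh38.p14 annotation MIR25, MIR93 and MIR106B neighbour each other within MCM7 on chromosome 7. MIR106A, MIR18B, MIR20B, MIR19B2, MIR92A2 and MIR363 neighbour each other within MIR106AHG on chromosome X. MIR19B2 and MIR92A2 yield the same mature miR-19b and miR-92a as genes of miR-17-92, and these products are therefore given with the relatives.

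Mature sequences of the 7 members and of the 4 relatives closest to them are shown because probes cannot always separate such neighbours. They were taken from RefSeq with the build GRCh38.p14, where 26 of the 27 names considered here were matched. Capitals mark the seed, and sequences run 5′ to 3′.
hsa-miR-106b: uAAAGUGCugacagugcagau
hsa-miR-93: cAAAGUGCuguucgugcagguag
hsa-miR-106a: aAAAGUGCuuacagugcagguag
hsa-miR-20b: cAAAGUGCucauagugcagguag
hsa-miR-17: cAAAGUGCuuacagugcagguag
hsa-miR-20a: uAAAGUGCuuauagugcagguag
hsa-miR-18b: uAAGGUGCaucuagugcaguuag
hsa-miR-18a: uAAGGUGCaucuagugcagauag
hsa-miR-25: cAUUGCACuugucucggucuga
hsa-miR-363: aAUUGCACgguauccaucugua
hsa-miR-92a: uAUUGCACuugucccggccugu

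The 7 members carried 3 seeds. AAAGUGC was shared by miR-106b, miR-93, miR-106a and miR-20b, AAGGUGC was held by miR-18b, and AUUGCAC was shared by miR-25 and miR-363. Positions are counted from 1 at the 5′ end, and the base of the member is written first. miR-106a differed from miR-17 by A1C alone, with 22 bases shared from the 3′ end. miR-18b differed from miR-18a by U20A alone. miR-20b differed from miR-17 by C10U and U12C and from miR-20a by C1U and C10U. miR-93 differed from its paralogue miR-20b by G10C, U11A and C13A. miR-25 differed from miR-92a by C1U, U14C, U18C and A22U. Among 2369 other mature human miRNAs the nearest to miR-363 was miR-25, at 7 single-base edits, so miR-363 was the member with the most distant neighbour, whereas 1 edit separated miR-18b from miR-18a. The letters of the probes are not used here, and how far a probe also binds a neighbour was not tested.

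The transfected miRNAs followed the labels. The signal of miR-195 was 45.3 units in non-treated cells and 38522 units with its mimic. miR-497 was not well above background in non-treated cells and gave 7903 units with its mimic. Of the 4 hepatic miRNAs examined, miR-192, miR-194 and miR-215 were well above background on every array, while miR-122 was not on any. Of 11 miRNAs typical of blood, muscle, mesenchymal or neural cells 1 was, the haematopoietic miR-142-3p, at 1521, 1244 and 397 units on the non-treated, miR-195 and miR-497 arrays. The summed signal of those 11 ran from 394 to 1538 units and that of the hepatic miRNAs from 1833 to 4933 units, and their part in the results was not tested. The miR-497 array was the dimmest, with a 75th percentile of 263 units against 827 and 778 units, and 119 human miRNAs besides the transfected ones were well above background there, against 167 and 151. The same mass of immunoprecipitated RNA was labelled for every sample, so the signals do not measure the number of cells or the RNA recovered. Why the miR-497 array was the dimmest was not tested.

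All 6 members analysed were well above background on all 3 arrays. A probe was counted so, or detected, when more than 50% of its usable spots carried the scanner's flag, and a miRNA needed 1 such probe. The signal of a miRNA is the sum of its background-subtracted probe means in intensity units, and the SD beside it comes from repeated spots of the same array (n = 1 array). It covers technical error within an array and holds nothing of the spread between cultures or immunoprecipitations. Probes bind with unequal strength, so signals of different miRNAs are not set against each other as amounts.

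Within the miR-106b-25 cluster, miR-106b, which shares its seed with miR-17, gave 3122 ± 196 units in non-treated cells, 3039 ± 206 with miR-195 and 1111 ± 112 with miR-497. miR-93, the other AAAGUGC member of the cluster, gave 1314 ± 45.6, 1016 ± 86.8 and 339 ± 59.9 units in the same order. miR-25, a member of the miR-92 family, gave 1342 ± 98.7, 1375 ± 30.9 and 486 ± 35.0 units. The non-treated and miR-195 arrays lay within their spot SDs for miR-106b and miR-25 but not for miR-93, and the miR-497 array was lowest for each. In the miR-106a-363 cluster, miR-18b gave 2625 ± 132, 2343 ± 121 and 791 ± 73.5 units. miR-20b, the AAAGUGC member of the cluster analysed here, gave 15278 ± 767, 15530.1 ± 684 and 6265 ± 405 units. miR-363, which carries the miR-92 family seed, gave 17456.5 ± 602, 14146 ± 610.3 and 6521 ± 666 units. The miR-497 array was again the lowest for these 3 miRNAs, and miR-20b was the one for which the non-treated and miR-195 values lay within their spot SDs.

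Each signal was then divided by the 75th percentile of its array, taken over the 183 probes well above background on all 3 arrays, and converted to log2. On this scaled log2 level miR-106b was at 1.92, 1.97 and 2.08 on the non-treated, miR-195 and miR-497 arrays. The level of miR-93 was 0.67, 0.38 and 0.36, and that of miR-25 was 0.70, 0.82 and 0.88. After scaling, miR-93 was highest without treatment, whereas miR-106b and miR-25 were highest on the miR-497 array. miR-18b was at 1.67, 1.59 and 1.59, a range smaller than the spot SD of 0.13 on the miR-497 array. miR-20b was at 4.21, 4.32 and 4.57, and miR-363 at 4.40, 4.18 and 4.63. The miR-497 array was highest for both, and for miR-363 the miR-195 array was lowest.

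**Figure D1:**
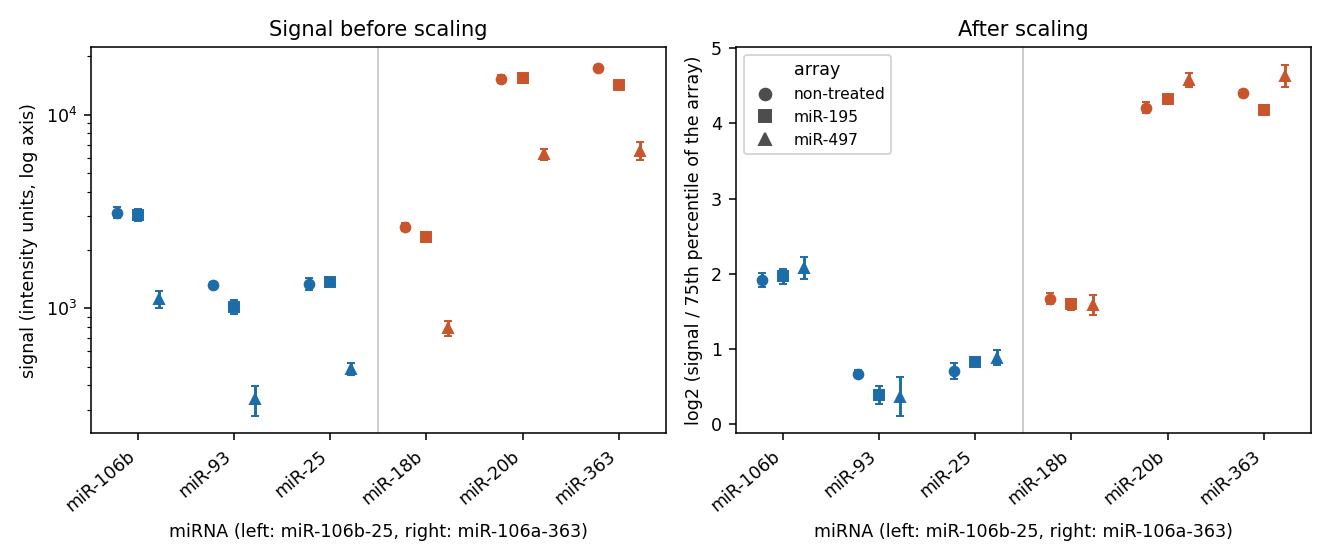
Signal of each cluster member by array, before scaling (left, intensity units on a log axis) and after division by the 75th percentile of the array (right, log2). Blue points are miR-106b-25 members and orange points miR-106a-363 members. Bars are the SD between spots of the array, n = 1 array per group. The miR-497 triangles lie below the other arrays for every member before scaling, and after scaling they lie highest for miR-106b, miR-25, miR-20b and miR-363.

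The comparison of the miR-195 array with the non-treated array asks whether these clusters changed with the miR-195 mimic relative to the other miRNAs in Ago2. A change common to all miRNAs is removed by the scaling. The scaled log2 difference was 0.05 (spot SD 0.13) for miR-106b, −0.28 (0.13) for miR-93 and 0.12 (0.11) for miR-25. It was −0.08 (0.10) for miR-18b, 0.11 (0.10) for miR-20b and −0.22 (0.08) for miR-363. miR-93 and miR-363 were lower by more than 2 spot SDs, and the other 4 members moved by less than 1.5 spot SDs. None of the 6 members passed 2-fold, whereas 2.72 percent of the 147 human miRNAs measured in both samples were at least 2-fold higher and 0.68 percent lower, 3.4 percent in either direction. With quantile normalization in place of the percentile 1 member was at least 2-fold lower, miR-363 at −1.19, beside 2 of the 147 miRNAs. The median difference was 0.05 (0.13) for miR-106b-25 and −0.08 (0.10) for miR-106a-363, beside a median of −0.01 over the 147 miRNAs, whose quartiles were −0.19 and 0.20. The gap between the cluster medians, 0.13, was smaller than its spot SD of 0.17. The sign of both cluster medians depended on the scaling, and ranged from −0.49 to 0.46 for miR-106b-25 and from −0.61 to 0.33 for miR-106a-363 over the alternatives. By their summed signals on 1 array per group, miR-93 thus lay apart from miR-106b and miR-25, and miR-363 apart from miR-20b. The dimmer probes of miR-93 and miR-25 lay close together, at −0.12 and −0.10.

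The comparison of the miR-497 array with the same non-treated array asks the same of the miR-497 mimic. The scaled log2 difference was 0.16 (0.17) for miR-106b, −0.31 (0.26) for miR-93 and 0.18 (0.15) for miR-25. It was −0.08 (0.15) for miR-18b, 0.37 (0.12) for miR-20b and 0.23 (0.16) for miR-363. miR-20b had the largest difference among the members and the only one above 2 spot SDs. With quantile normalization the miR-20b value was −0.06, and with normexp background correction it was 0.19 (0.12). None of the 6 members was at least 2-fold higher or lower, beside 3.39 percent of 118 human miRNAs higher and 0 percent lower. The cluster medians were 0.16 (0.17) for miR-106b-25 and 0.23 (0.16) for miR-106a-363, beside 0.03 over the 118 miRNAs with quartiles of −0.12 and 0.26. The medians differed by −0.07, less than the spot SD of 0.23. Without scaling all 6 members were more than 2-fold lower with miR-497, between −1.96 for miR-93 and −1.29 for miR-20b. So were 113 of the 118 miRNAs, whose median fell by 1.65 relative to the scaled values.

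Between the mimics, the miR-497 array minus the miR-195 array gave 0.11 (0.17) for miR-106b, −0.02 (0.28) for miR-93 and 0.06 (0.11) for miR-25. It gave −0.003 (0.15) for miR-18b, 0.25 (0.11) for miR-20b and 0.45 (0.16) for miR-363. The 3 members of miR-106b-25 and miR-18b differed between the mimics by less than 1 spot SD, while miR-20b and miR-363 were higher with miR-497 by more than 2 spot SDs. With quantile normalization the miR-20b value was −0.15 and that of miR-363 was 0.40. With normexp background correction they were 0.083 (0.11) and 0.27 (0.16). None of the 6 members was at least 2-fold apart, beside 1.71 percent of 117 human miRNAs higher and 0 percent lower. The cluster medians were 0.06 (0.11) and 0.25 (0.11), beside 0.02 over the 117 miRNAs, and differed by −0.19 with a spot SD of 0.16. Without scaling the 6 members lay between −1.59 and −1.12, all more than 2-fold lower with miR-497, as were 114 of the 117 miRNAs. The comparisons with the non-treated array share that array, so their values are given side by side and no likeness is read from them.

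**Figure D2:**
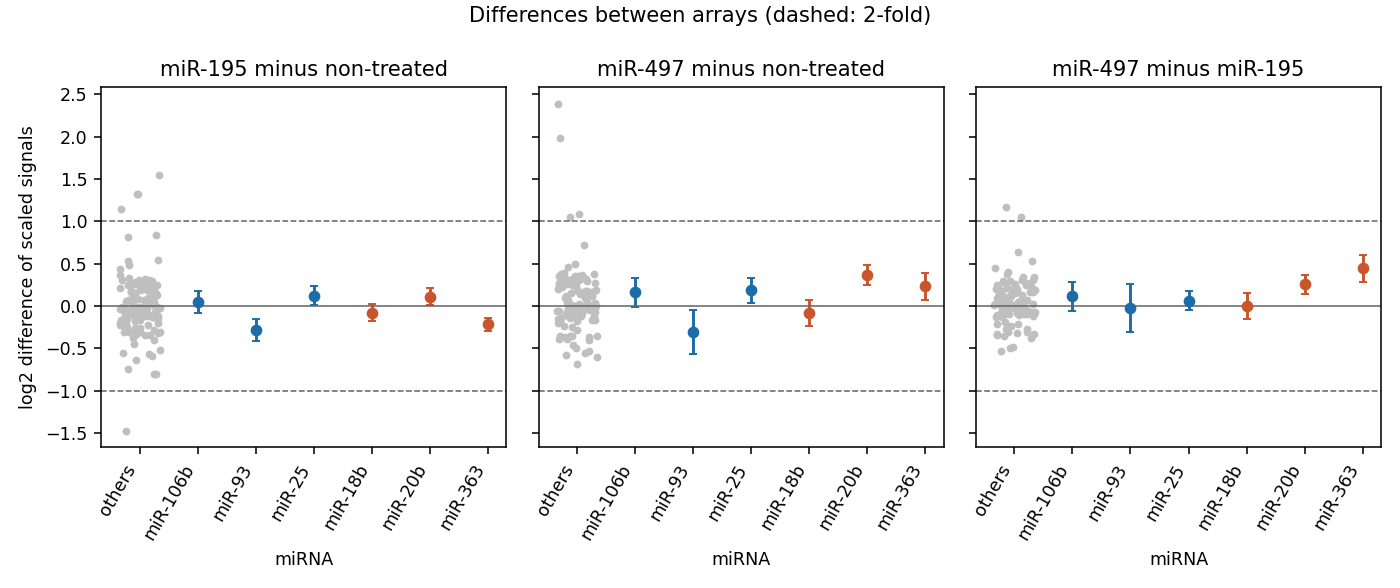
Scaled log2 differences of the cluster members in the 3 comparisons, with the other human miRNAs measured in both samples as grey points. Blue points are miR-106b-25 and orange points miR-106a-363, bars are the spot SD of the difference, and dashed lines mark 2-fold. Every member lies inside the 2-fold lines in each comparison, and miR-363 stands at −0.22, 0.23 and 0.45.

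The weight of each cluster within an array does not depend on the scaling. The summed signal of the 3 miR-106b-25 members was 5779 ± 224 units in non-treated cells, 5430.3 ± 225 with miR-195 and 1935 ± 131 with miR-497. That of miR-18b, miR-20b and miR-363 was 35359.6 ± 984, 32019 ± 925 and 13577 ± 783 units. miR-106b-25 thereby held 14.0% ± 0.58 of the signal of the 6 members in non-treated cells, 14.5% ± 0.63 with miR-195 and 12.5% ± 0.97 with miR-497. The first pair of shares lay within the spot SDs, and the share on the miR-497 array was the lowest of the 3. The 6 members together held 17.2%, 16.7% and 15.7% of the signal of all human miRNAs well above background, without the transfected ones. These shares describe the signal of the probes and not the copies of each miRNA.

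Because a miRNA is read by several probes on the same array, its probes measure the same change more than once. The members had 13 probes, of which 13, 13 and 12 were well above background on the non-treated, miR-195 and miR-497 arrays, and the second probe of miR-93, at 11.2 units on the miR-497 array, was the exception. On the miR-497 array against the non-treated array the brighter probe of miR-106b gave a scaled log2 difference of 0.23 and the dimmer one −0.05. For miR-25 the brighter probe gave 0.20 and the dimmer one −0.08. The sign thus changed with the probe for these miR-106b-25 members. For miR-18b the 3 probes gave −0.02, −0.15 and −0.32 from the brightest to the dimmest, at 1531, 921 and 174 units on the non-treated array. The probes of miR-363 gave 0.33 and 0.09, and those of miR-20b, which are close in brightness, gave 0.39 and 0.33. The brightest probe gave the higher value in 5 of the 5 members with at least 2 probes measured, with a median gap of 0.28, in 5 of 5 relatives with a median gap of 0.24, and in 44 of 52 other human miRNAs with a median gap of 0.23.

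The same pattern was smaller on the miR-195 array. The brightest probe gave the higher value there in 5 of 6 members, with a median gap of 0.08. It did so in 5 of 6 relatives with a median gap of 0.12, and in 66 of 89 other human miRNAs with a median gap of 0.11. Among the members the largest gap was that of miR-25, whose probes gave 0.14 and −0.10. The member that went the other way was miR-93, with −0.29 from the bright probe and −0.12 from the dim one. For miR-363 both probes were lower on the miR-195 array, at −0.17 and −0.28, and both were higher with miR-497 than with miR-195, at 0.50 and 0.37. For miR-20b both probes were above 0 in all 3 comparisons after scaling to the 75th percentile, from 0.10 to 0.39. The part of probe brightness in the differences between members was not tested.

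**Figure D3:**
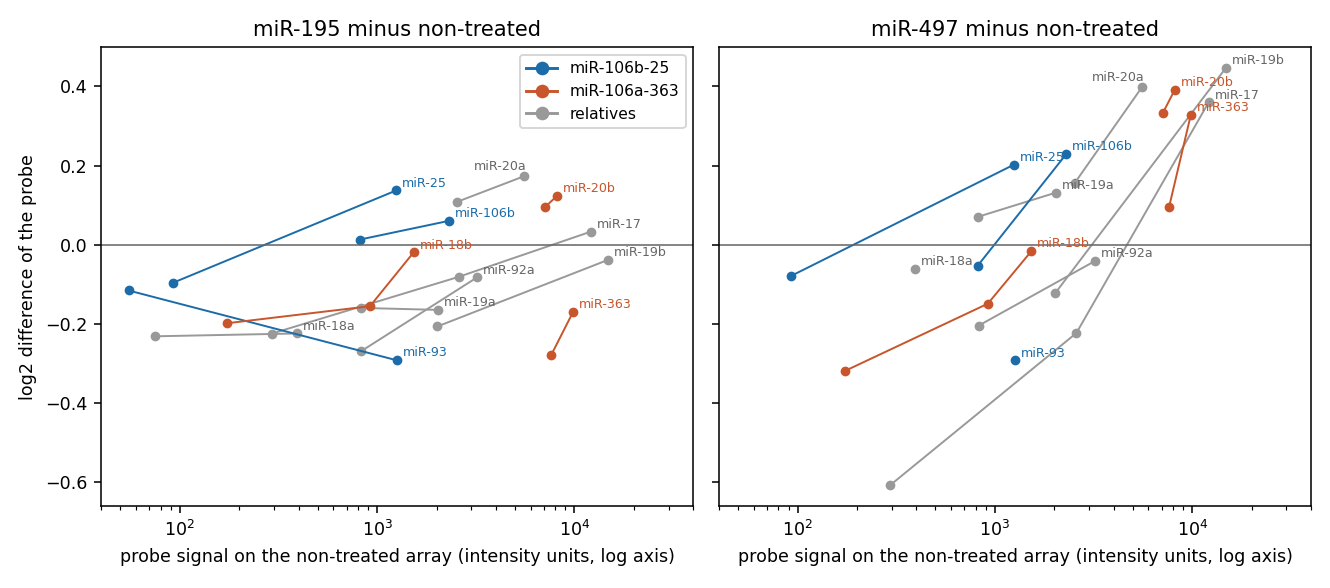
Scaled log2 difference of each probe against its signal on the non-treated array (intensity units, log axis), for the miR-195 array (left) and the miR-497 array (right). Lines join probes of the same miRNA, in blue for miR-106b-25, orange for miR-106a-363 and grey for relatives, and probes not well above background on both arrays are left out. In the right panel the lines climb with brightness, from −0.61 to 0.36 for miR-17 and from −0.05 to 0.23 for miR-106b.

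Members were set beside relatives of the same seed, with the gap between their differences and its spot SD. miR-18a, the miR-17-92 counterpart of miR-18b, gave 468 ± 13.5, 377 ± 26.5 and 140.2 ± 11.7 units on the non-treated, miR-195 and miR-497 arrays. Its scaled differences were −0.23 for miR-195 and −0.09 for miR-497, and the gaps of miR-18b to it, 0.15 (0.15) and 0.01 (0.20), were within the spot SD. miR-20a gave 8109.8 ± 367, 8491 ± 349.8 and 3239 ± 26.4 units, with differences of 0.15 and 0.33. The gaps of miR-20b to miR-20a, −0.04 (0.13) and 0.04 (0.14), were within it too. miR-17 gave 14978 ± 1267, 14192 ± 899.7 and 5708 ± 623 units with differences of 0.01 and 0.26, and miR-20b lay within 1 spot SD of it in both comparisons. For miR-93, at 3 edits from miR-17, and miR-25, at 4 edits from miR-92a, the gaps were larger than the spot SD. The gap of miR-93 to miR-17 was −0.29 (0.20) with miR-195 and −0.56 (0.33) with miR-497. That of miR-25 to miR-92a was 0.24 (0.16) and 0.26 (0.16). The dimmer miR-25 probe lay among the miR-92a probes, however. With miR-195 it gave −0.10 beside −0.08 and −0.27, and with miR-497 −0.08 beside −0.04 and −0.20. miR-106b, at 5 edits from both miR-17 and miR-20a, nevertheless stayed within the spot SD of each. Its gaps were 0.04 (0.20) and −0.10 (0.26) to miR-17, and −0.11 (0.16) and −0.17 (0.18) to miR-20a. The gaps of miR-18b and miR-20b to their near-identical counterparts thus stayed within the spot SD, which does not show that they moved alike. How much of each signal comes from the neighbour was not tested.

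Within a seed group the gap between members of the 2 clusters passed the spot SD for some pairs and not for others. The spot SD is a spread between spots and not the error of a mean, so neither outcome is a test. The gap of miR-106b to miR-20b was within the spot SD against the non-treated array, at −0.06 (0.16) with miR-195 and −0.20 (0.21) with miR-497. The gap of miR-93 to miR-20b was −0.39 (0.16) with miR-195 and −0.67 (0.29) with miR-497, past 2 spot SDs in both. miR-106b exceeded miR-93, its neighbour in the same cluster, by 0.33 (0.19) and 0.47 (0.31). In the AUUGCAC group, miR-25 exceeded miR-363 by 0.34 (0.14) with miR-195, while the gap with miR-497 was −0.05 (0.22). With miR-195 the dimmer miR-25 probe gave −0.10, beside −0.17 and −0.28 from the miR-363 probes. miR-92a, the miR-17-92 member of this group, gave 4037 ± 63.6, 3499.9 ± 276 and 1222 ± 51.2 units, with differences of −0.12 and −0.07. Its gap to miR-363 was within the spot SD with miR-195, and miR-363 exceeded it by 0.30 (0.17) with miR-497. The median over the 6 relatives measured (miR-17, miR-18a, miR-19a, miR-19b, miR-20a and miR-92a) was −0.09 (0.10) with miR-195 and 0.19 (0.13) with miR-497, beside −0.01 and 0.17 over the 6 members. miR-19b, a product of miR-106a-363 as well as of miR-17-92, gave −0.06 and 0.39.

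**Figure D4:**
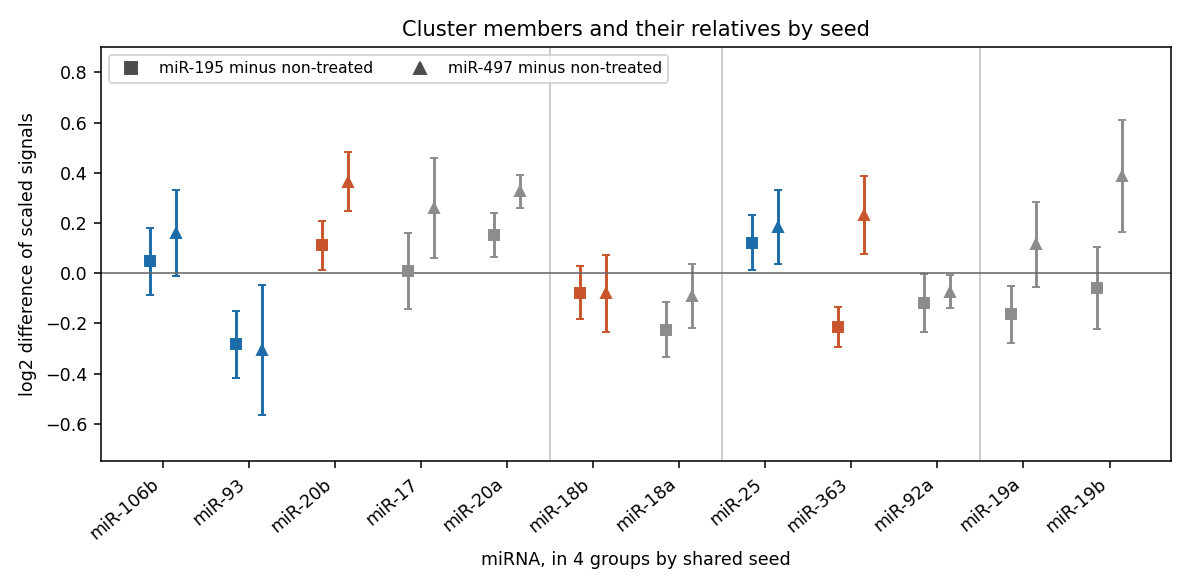
Scaled log2 differences from the non-treated array for members (blue, miR-106b-25; orange, miR-106a-363) and their relatives (grey), in groups by shared seed separated by vertical lines. Squares are the miR-195 array, triangles the miR-497 array and bars the spot SD. miR-93 lies below the other miRNAs of its group in both comparisons, and miR-363 changes sign between them.

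Other carriers of these seeds outside the clusters were dim or not detected. Of the seed relatives examined, miR-519d, miR-526b* and miR-367 failed detection on all 3 arrays, as did miR-520g and miR-520h, whose seed is shifted by 1 base. miR-32, with the AUUGCAC seed, gave 120.5, 76.4 and 35.3 units, the last of them below detection. Its difference with miR-195 was −0.57 (0.30), and it was −0.068 with normexp background correction and 1.53 in the totals of the scanner software. miR-92b was not detected on any array.

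The opposite strands of the member hairpins, marked by an asterisk, were mostly near background. For most hairpins this strand is the one discarded when Ago2 is loaded. miR-93*, miR-25*, miR-18b* and miR-20b* were not detected on any array, and miR-106b* was so on the non-treated array alone, through 1 of its 4 probes at 18.8 units. miR-106a* was measured on all 3 arrays, at 191 ± 7.31, 126 ± 14.6 and 53.9 ± 7.30 units. Its scaled differences were −0.51 (0.18) with miR-195 and −0.17 (0.20) with miR-497, where normexp background correction gave 0.92, and most of its signal came from 1 of 4 probes. The strand miR-363* is printed here because it was the one human miRNA among the 147 that was at least 2-fold lower on the miR-195 array.
hsa-miR-363*: cGGGUGGAucacgaugcaauuu
It gave 84.0 ± 10.98 units in non-treated cells, 28.5 ± 6.88 with miR-195 and 17.1 ± 6.53 with miR-497, the last of them below detection. The scaled difference with miR-195 was −1.48 (0.40), 2.78-fold lower, and with miR-497 it was lower by at least 1.40-fold. The value rested on 1 detected probe, which went from 80.2 to 33.1 units, a scaled difference of −1.19. The summed signal also holds the means of the undetected probes, some of them negative, which made the difference larger. With normexp background correction the difference was −0.15. miR-363 itself differed by −0.22 on the same array, so by summed signals the gap between the strands was −1.26 (0.40).

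Other miRNAs were ranked by how closely their profile over the 3 arrays followed the mean profile of each cluster, each profile centred on its own mean scaled log2 level, among 112 human miRNAs well above background throughout. The mean profile of miR-106b-25 was nearly flat, at 0.01, −0.03 and 0.02 on the non-treated, miR-195 and miR-497 arrays. It averaged members that moved in opposite directions. miR-93 was highest on the non-treated array, and miR-106b and miR-25 were highest on the miR-497 array. The nearest to it were miR-140-3p, miR-505* and miR-24-1*, with largest departures of 0.01, 0.02 and 0.03, and 26 miRNAs lay within 0.1 of it. The mean profile of miR-106a-363 was −0.04, −0.10 and 0.13. The nearest to it were miR-33a, let-7g and miR-146a, with largest departures of 0.02, 0.02 and 0.04, and 16 miRNAs lay within 0.1 of it. Over 3 arrays such likeness is a description.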

How the data were processed

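Per the file headers the authors scanned single-colour miRNA arrays with Agilent Feature Extraction 10.7.1.1. The deposited scanner files hold spot intensity on a linear scale, after subtraction of background and of the surface trend of each array. The authors also deposited a GeneSpring table of log2 values, which for the members equalled the log2 of the scanner software's total per miRNA. Headers name hg19, and since the gene table used here is of GRCh38.p14, no coordinates are given.

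Spots with an outlier flag were left out, which kept 85 to 90 of the members' 96 spots per array. Probe means were summed per miRNA and scaled to the 75th percentile. For a miRNA not well above background, the larger of its own and the lowest detected signal served as a bound. Python 3.11.15 with numpy 2.4.6 and pandas 2.3.3 was used, and R 4.3.3 with limma 3.58.1 for normexp with an offset of 50. The summary was tested on simulated data with larger changes than the members showed and with the same dimming for every probe. That test does not cover differences as small as those of the members.

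Samples were grouped by the labels, with 1 array each. The text names all members, their opposite strands, relatives with near-identical sequence or the same seed, the transfected miRNAs, cell type markers and the 3 nearest profiles per cluster. The members and lists were chosen with earlier results of these data known. Alternatives covered scaling, background, spots, probe summary, detection, filter, threshold and the deposited table.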

Additional observations from a re-analysis of the deposited data

Results flagged for a closer look

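miR-363 differed from the non-treated array in opposite directions with the 2 mimics, at −0.22 with miR-195 and 0.23 with miR-497 on the scaled log2 scale, so that the arrays with a mimic lay 0.45 apart. With 1 array per group the difference was not tested. Both values depended on the scaling, since the miR-497 value was −1.42 without scaling and the miR-195 value was 0.19 with spike-in scaling.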

How the results depend on the processing

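With 1 array per group, leaving out a replicate was not possible. No paired analysis was possible because each group holds 1 array. Of the alternatives, keeping all spots, the brightest probe, no filter on dim miRNAs and a threshold of 1.5-fold moved no cluster median or count beyond the limits set. Medians are given for miR-106b-25 and then miR-106a-363. With the 75th percentile over all probes they were −0.49 and −0.61 for miR-195 against non-treated. They were −1.22 and −1.15 for miR-497 against non-treated, with 6 members at least 2-fold lower beside 110 of the 118 miRNAs. Between the mimics they were −0.78 and −0.59. Median scaling gave 0.18 and 0.38 between the mimics. Without scaling, miR-497 gave −1.49 and −1.42 against non-treated and −1.50 and −1.31 against miR-195, with 6 members lower in each. So were 113 of 118 and 114 of 117 miRNAs. Spike-in scaling gave 0.46 and 0.33 for miR-195, −1.21 and −1.14 for miR-497 and −1.72 and −1.52 between the mimics. In the latter comparisons 6 members were lower, beside 108 of 118 and 115 of 117 miRNAs. Quantile normalization gave −0.20 and −0.30 for miR-195 with 1 member lower, miR-363 at −1.19, beside 2 of 147 miRNAs. It gave −0.16 and −0.17 for miR-497, and 0.13 for miR-106a-363 between the mimics. Normexp gave 0.056 and 0.083 for miR-106a-363 with miR-497 against non-treated and against miR-195, and a gap between cluster medians of −0.016 in the latter. The software total gave −0.19 for miR-106a-363 with miR-195, −0.16 and −0.094 with miR-497 and −0.16 and 0.037 between the mimics. Requiring all spots above background gave 0.042 for miR-106a-363 with miR-195. The deposited table gave −1.46 and −1.39 for miR-497 against non-treated and −1.46 and −1.26 against miR-195. In each 6 members were lower, beside 93 of 118 and 95 of 117 miRNAs. Of the values moved, the gap between cluster medians was moved by normexp alone. miR-93 on the miR-497 array was the one member value of 18 that kept its sign in every setting, from −1.97 to −0.19. The causes were not tested.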

Other observations

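The deposited log2 table held the same value as the scanner software's total for the 6 members on each array, with a largest gap of 8.84e-07 over 18 values. For miR-106b* it held 10.67 for non-treated cells and 0 for both mimics. The software total behind the non-treated value was 1626 units, while the miRNA's own probes summed to 4.89 units in the software's scale, and the excess of 1621 units equalled the total of miR-106b on that array. For miR-106a* the totals were 1501, 1377 and 453 units on the non-treated, miR-195 and miR-497 arrays, beside 49.5, 32.3 and 14.6 units from its own probes and totals of 1452, 1346 and 440.4 units for miR-103.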
